A study of Homo sapiens with 6 samples.

Results

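The genes described here encode the machinery that copies DNA and the enzymes that supply its building blocks. They comprise 35 of the 23368 genes in the count table, taken by symbol as a list of S-phase, replication fork and nucleotide synthesis genes, and every one of the 35 symbols was found. RNA was sequenced from 1205Lu cells, an established line of metastatic human melanoma, after transient transfection with either pCMV6-SOX10, a plasmid that expresses the neural crest transcription factor SOX10, or the pCMV6 plasmid without that insert. Both groups got 7.8 µg of plasmid per flask with the same lipid reagent, were lysed at 24 h, and hold 3 biological replicates each. All 6 libraries come from 1 line, and the share of cells that took up plasmid is not stated.

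The libraries differed in depth between groups. Reads assigned to genes ran from 2544420 to 4167393 in the SOX10 libraries and from 867917 to 2066520 in the controls. Depth and treatment thus cannot be told apart in this design, and thinning the deeper libraries evens only the number of reads. SOX10 itself stood at a mean of 25.0 against 19.6 CPM (read counts scaled to library size, with TMM factors between libraries). Its log2 fold change was 0.35 (SE 0.27; edgeR adjusted p 0.927), so its reads do not check the labels, and the libraries are called by their labels throughout. Lineage markers of melanocytes were uneven. ERBB3, S100A1 and S100B had 4339 to 6359 reads over the 6 libraries, while MLANA, TYR and DCT had 4 to 9. The summed level of the 10 lineage markers in the table was 1120 to 1262 CPM in the SOX10 libraries and 1076 to 1206 CPM in the controls. Of 8 keratinocyte and epithelial markers 2 had enough reads for a test, as did 2 of 8 of leukocytes and endothelium and 2 of 6 of fibroblasts. None of these was called. Their summed levels were 118 to 126 against 106 to 116 CPM for the first list, 198 to 491 against 261 to 630.5 CPM for the second and 102 to 173 against 118 to 152 CPM for the third. KRT18, DSP, CD68 and PDGFRA had 650 to 5465 reads and CD3E and LUM had 0, and the part of such cells in the results was not tested.

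Replication begins with the loading of the MCM2-7 helicase onto origins in G1, by CDC6 and CDT1. Cyclin E with its kinase then starts S phase, the GINS complex and MCM10 help to turn the loaded helicase into a moving fork, and polymerases, primase, the sliding clamp PCNA and its loader RFC synthesise DNA. Much of this gene set is transcribed under control of the E2F family, whose sites in promoters are held by the RB proteins in resting cells, and for that reason the genes are widely read as a signature of proliferation. Tumour cells in culture express them throughout, since a share of the cells is always in S phase. In bulk RNA, a smaller share of cells in S phase and less RNA per S-phase cell cannot be told apart.

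The promoters of these genes were searched for E2F-type letters, because E2F is the factor family best known to control this gene set. RefSeq promoter windows of 300 bases (250 before and 50 after the start site, build GRCh38.p14) were found for 31 of the 35 genes, in 39 windows, while MCM4, MCM5, CCNE2 and GINS4 had none. The motifs searched on both strands were TTTCCCGC, TTTGGCGC, TTTCGCGC and TTTGCCGC. Matches can overlap, as in MCM6, where TTTGGCGC runs into the opposite-strand form of TTTCGCGC. At least 1 of the 4 was present in 18 of the 31 genes, or 58.1%, against 3.99% of 27305 genes with a window and 7.14% of the 7845 among them that had enough reads for a test. Per window the share was 46.2% of 39 against 3.31% of all 35116. The letters CCAAT, the core of the NF-Y site, were in 58.1% of the 31 genes against 39.7% of all genes and 44.1% of those with enough reads. A match describes letters in this window and does not show that a factor binds there.

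The stretches below are those of helicase genes, of E2F1 itself, of the clamp gene PCNA, the licensing gene CDT1 and the thymidylate synthase gene TYMS, 5′ to 3′ on each gene's strand, with the matching letters in capitals. They were picked because they hold a match, so the recurrence of these letters among them follows from the search.
MCM6, chr2:135876568-135876611, minus strand: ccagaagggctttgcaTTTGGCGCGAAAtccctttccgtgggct
MCM6, chr2:135876506-135876549, minus strand: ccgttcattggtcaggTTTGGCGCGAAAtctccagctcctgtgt
MCM3, chr6:52284893-52284932, minus strand: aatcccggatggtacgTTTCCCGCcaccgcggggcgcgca
MCM7, chr7:100101561-100101600, minus strand: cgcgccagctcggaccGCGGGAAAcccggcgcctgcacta
E2F1, chr20:33686386-33686434, minus strand: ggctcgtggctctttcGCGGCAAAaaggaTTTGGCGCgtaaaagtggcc
PCNA, chr20:5126658-5126697, minus strand: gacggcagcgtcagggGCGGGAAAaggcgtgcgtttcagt
CDT1, chr16:88803738-88803777, plus strand: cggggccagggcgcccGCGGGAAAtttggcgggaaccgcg
TYMS, chr18:657598-657637, plus strand: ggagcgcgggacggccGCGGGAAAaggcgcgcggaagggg

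Across the 18 genes there were 25 matches, and 5 genes had more than 1. Of the 25 matches 21 began before the start site, 12 of them within 60 bases of it, and the farthest began 187 bases before. MCM6 holds the same 12-letter run TTTGGCGCGAAA in both of its stretches, where the runs begin 152 and 90 bases before the start. Those of CDC6, GINS1 and MCM2 began after the start site.

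**Figure D1:**
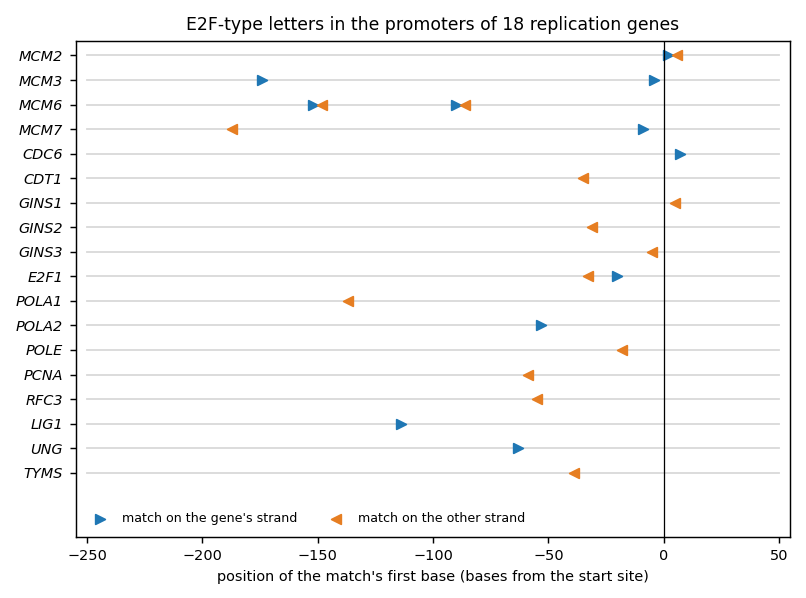
Position of each E2F-type match (x axis, bases from the start site) in the promoter windows of the 18 replication genes that hold at least 1 (y axis). Triangles give the strand of the match, grey lines the 300-base window, and 21 of the 25 matches begin before the start site.

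No replication gene was called as changed by SOX10 transfection. Of the 35 genes 34 had enough reads for a test and 0 were called in either direction (edgeR, adjusted p under 0.05), where 0.112% of all 10678 tested genes did. At an unadjusted p under 0.05 the count was also 0, against 6.23% of all tested genes, and DESeq2 and limma-voom called 0 as well. The smallest unadjusted p was 0.0901, for MCM4, and adjusted p-values ran from 0.872 to 0.999. The median log2 fold change of the 34 genes was 0.04, against 0.01 over all tested genes. Of the 34, 21 had a positive and 13 a negative value, and these ran from -0.76 for CCNE1 to 0.51 for UNG. As a sum, the 35 genes took 0.509%, 0.530% and 0.484% of assigned reads with SOX10 and 0.495%, 0.463% and 0.506% without, and the groups overlapped.

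The precision differed widely between genes. Standard errors ran from 0.09 to 0.43 on the log2 scale, on 84 to 12585 reads per gene over the 6 libraries. For 28 of the 34 genes the 95% confidence interval of the log2 fold change lay between -1 and 1, which leaves a change of 2-fold or more in either direction outside it. This held for 82.4% of the replication genes, 76.2% of all tested genes and 81.4% of the 9823 with total reads in the same range. For 18 genes, or 52.9%, the interval lay between -0.5 and 0.5, against 32.1% of all tested genes and 33.6% of those 9823. Depth was not equal in these lists, with a median of 613 reads in the replication genes, 428 in all tested genes and 468 in the 9823. The 6 whose interval reached past 1 or -1 were CCNE1, CCNE2, GINS2, PRIM1, LIG1 and UNG, which had 84 to 266 reads. In those a 2-fold change in 1 direction lay within the interval.

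**Figure D2:**
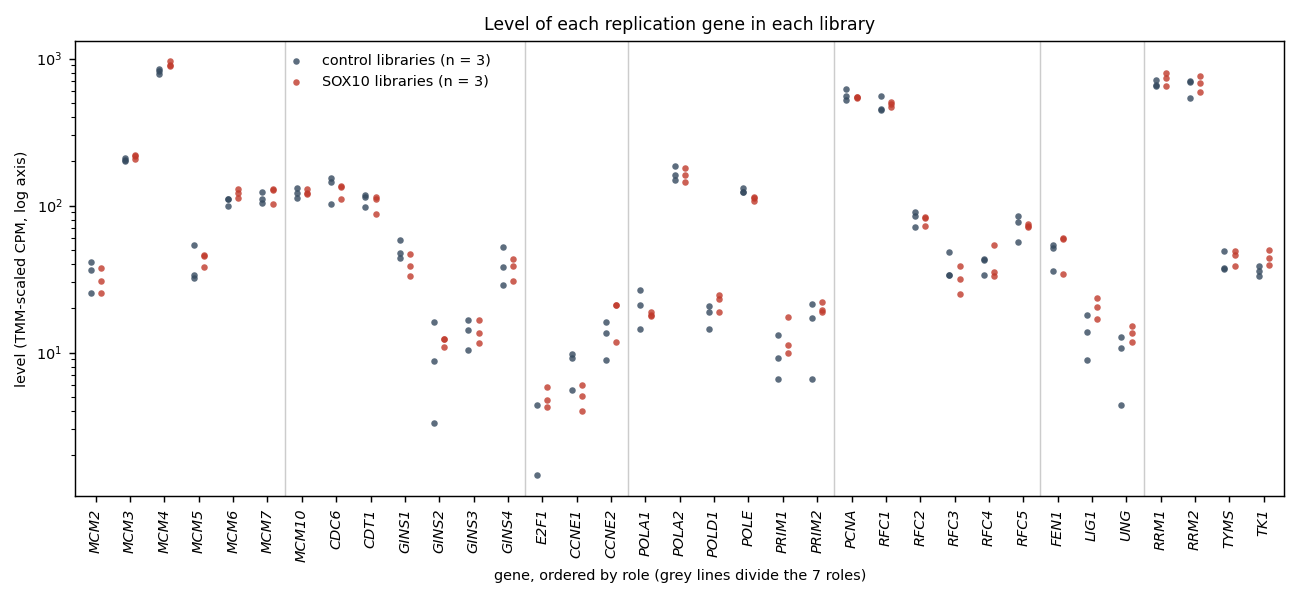
Level of each gene in each library (y axis, TMM-scaled CPM on a log axis), with genes on the x axis in order of role and grey lines between the 7 roles. Red points are the 3 SOX10 libraries and dark points the 3 controls. E2F1 had 0 reads in control replicate 2, which is not drawn, and the groups overlap for 30 of the 34 tested genes. Over all tested genes, every SOX10 library lay above every control for 5.72% and below for 6.03%.

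**Figure D3:**
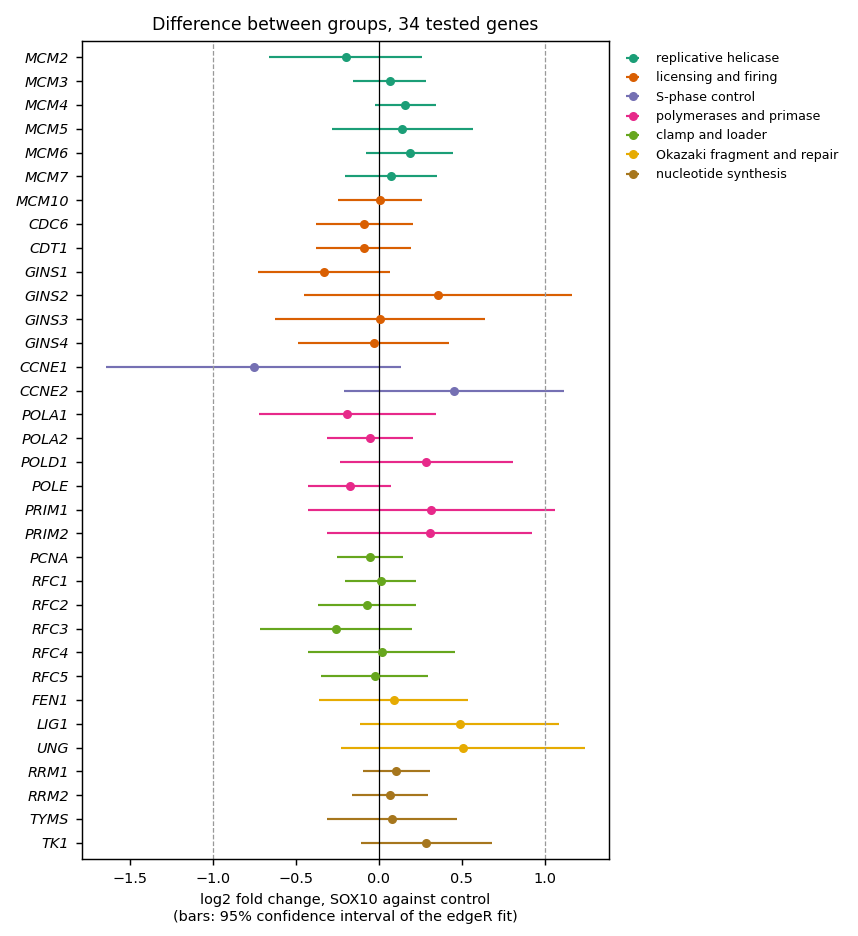
Log2 fold change of SOX10 against control for each of the 34 tested genes (x axis, points), with its 95% confidence interval (bars), coloured by role. Every interval includes 0, and dashed lines mark a 2-fold change.

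The MCM2-7 helicase unwinds the DNA ahead of the fork as a ring of 6 related subunits. All 6 were tested, 0 passed, and their median log2 fold change was 0.11. MCM4 stood at 902, 957 and 885 CPM with SOX10 and at 818, 788 and 849 CPM in controls. Each SOX10 library lay above each control, by 0.16 on the log2 scale (SE 0.09; adjusted p 0.872). The interval of the fold ran from 0.982 to 1.27. MCM6 stood at 121, 113 and 131 against 99.5, 111 and 110.2 CPM. Its groups did not overlap either, though SOX10 replicate 2 and control replicate 2 were close, and the log2 fold change was 0.19 (SE 0.13; adjusted p 0.915).

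The other subunits overlapped between groups. MCM3 stood at 220.1, 208 and 216 CPM against 210.1, 201 and 206 CPM, with a log2 fold change of 0.06 (SE 0.11). MCM7 stood at 129.9, 128 and 103 CPM against 104, 111 and 124 CPM, where SOX10 replicate 3 was the lowest of the 6. Among the scarcer subunits, MCM5 had 46.1, 45.1 and 38.0 CPM against 32.1, 54.2 and 33.6 CPM, and control replicate 2 alone was higher than any SOX10 library. MCM2 had 30.8, 37.5 and 25.4 CPM against 36.5, 25.4 and 41.4 CPM, and was the only subunit with a negative value, -0.20 (SE 0.22). Log2 fold changes of MCM7 and MCM5 were 0.07 (SE 0.13) and 0.14 (SE 0.21). In all tested genes together, every SOX10 library lay above every control for 5.72% and below for 6.03%. Among the 34 replication genes that was so for 3 (MCM4, MCM6 and the thymidine kinase gene TK1) and 1 (POLE).

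The subunits of this ring, which assemble in equal number, had very unequal read levels per exon length. The yield of the library kit per gene was not measured, and the annotation used in counting is not stated. The ratios below are thus of reads and do not give the numbers of RNA molecules. Per kilobase of exon in GENCODE release 29, MCM4 stood at 199 ± 14.1 CPM per kb (SD, n = 6 libraries) and MCM3 at 65.4 ± 2.17. MCM7 and MCM6 stood at 32.0 ± 3.34 and 30.6 ± 2.84 CPM per kb. At the low end were MCM5 at 11.7 ± 2.39 and MCM2 at 9.07 ± 1.85 CPM per kb. The highest mean was 22.0 times the lowest. Within single libraries the ratio of MCM4 to MCM2 per length was 17.1 or more. MCM4 ranked first and MCM3 second in all 6 libraries, whereas MCM6 and MCM7 traded places between libraries, as did MCM5 and MCM2. Of the exonic bases of MCM2, 32.0% are shared with genes on the opposite strand, and for MCM7 this was 7.58%, while MCM3, MCM4, MCM5 and MCM6 share none. Whether reads were counted by strand is not stated, so reads in shared bases may be missing or may come from the other gene. What shared bases did to the level of MCM2 was not tested.

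**Figure D4:**
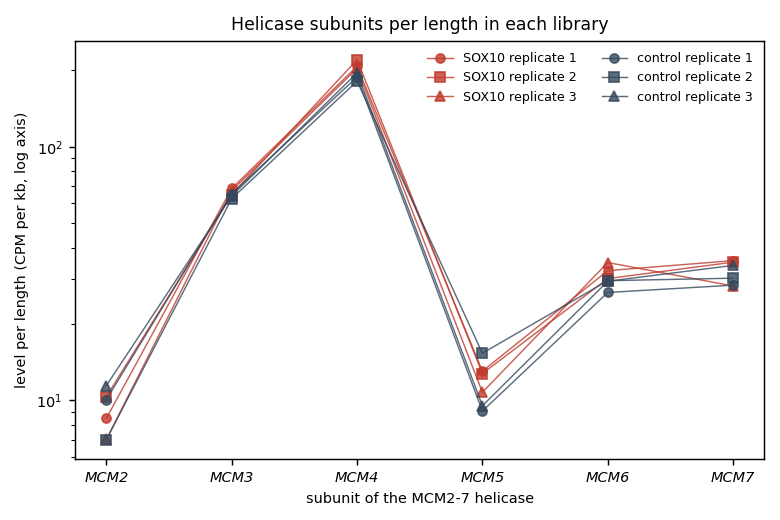
Level per length of the 6 helicase subunits (y axis, CPM per kb of exon, log axis) in each of the 6 libraries (lines, red for SOX10 and dark for control, marker by replicate). MCM4 ranks first and MCM3 second in all 6, with MCM4 between 181 and 220.4 CPM per kb and MCM2 between 7.01 and 11.4.

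Loading and activation of the helicase rest on CDC6 and CDT1, which bring MCM2-7 to origins, and on MCM10 and the 4 GINS subunits. None of the 7 passed, their median log2 fold change was -0.03, and all 7 overlapped between groups. CDC6 stood at 137, 135 and 110.5 CPM with SOX10 and 144, 103 and 153 CPM in controls, a difference on the log2 scale of -0.09 (SE 0.14). CDT1 stood at 111, 115 and 87.9 against 114, 98.0 and 119 CPM, also -0.09 (SE 0.14). Among the controls both were lowest in replicate 2, and the ratio of CDC6 to CDT1 per length stayed between 0.705 and 0.867 in all 6 libraries. MCM10 had a value of 0.00 (SE 0.12) and an interval from -0.25 to 0.26. GINS subunits were scarcer and less certain. Log2 fold changes were -0.33 (SE 0.19) for GINS1, 0.35 (SE 0.39) for GINS2, 0.00 (SE 0.31) for GINS3 and -0.03 (SE 0.22) for GINS4. GINS2 rested on 46, 31 and 45 reads against 3, 14 and 18, and leaving out control replicate 1 gave 0.04 and leaving out control replicate 2 gave 0.79.

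Of the genes that set the start of S phase, E2F1 and CCNE1 had the lowest levels per length of the set. E2F1, the E2F factor whose own promoter carries 2 of the matches above, had 16, 12 and 24 reads with SOX10 and 4, 0 and 3 in controls, too few for the test. As levels these were 4.28, 4.79 and 5.81 CPM against 4.42, 0 and 1.46 CPM. Control replicate 1 lay inside the SOX10 range, and the 0 of control replicate 2 allows up to 3.46 CPM (3 reads, counting error only). With no filter on low counts E2F1 had a value of 1.42 on the log2 scale (SE 0.72; unadjusted p 0.0336, adjusted p 0.921). By DESeq2 it was 1.39 (SE 0.91), and over fits without 1 control it ran from 0.99 (without replicate 2) to 2.26 (without replicate 1). In those last fits E2F1 passed the filter through its reads in the SOX10 libraries, and no fit without a SOX10 library tested it. The controls held 7 reads in all, so none of these values is support for a change. Cyclin E1 (CCNE1) stood at 4.02, 5.98 and 5.09 against 5.53, 9.23 and 9.75 CPM, -0.76 on the log2 scale (SE 0.43; interval from -1.65 to 0.13). Cyclin E2 (CCNE2) stood at 21.2, 21.1 and 11.9 against 8.85, 16.1 and 13.7 CPM, with 0.45 (SE 0.32) and an interval from -0.21 to 1.12. Its value was 0.29 without control replicate 1 and 0.70 without SOX10 replicate 3. Both cyclin genes overlapped between groups.

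These 2 cyclins activate the same kinase, and their estimates had opposite signs. The ratio of CCNE2 to CCNE1 per length was 3.19, 2.14 and 1.41 with SOX10 and 0.969, 1.06 and 0.848 in controls. These did not overlap, and an exact two-sided permutation test gave p = 0.10, the smallest that 3 against 3 allows, or 0.35 adjusted over the 7 pairs compared. CCNE1 rested on 15, 15 and 21 against 5, 8 and 20 reads, and 47.6% of the exonic bases of CCNE2 are shared with genes on the opposite strand. The 7 pairs were chosen after the counts had been seen, and the share of all gene pairs without overlap was not computed. Neither the non-overlap nor the test is thus support for a change.

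Polymerase alpha with primase lays down primers, and polymerases delta and epsilon extend them. None of the 6 genes passed, with a median of 0.12. POLE, the catalytic subunit of the leading-strand polymerase, stood at 113, 108 and 114 CPM with SOX10 and 124, 133 and 123 CPM in controls. Every SOX10 library was lower, with a log2 difference of -0.18 (SE 0.12; adjusted p 0.915). POLD1, that of the lagging-strand polymerase, had 0.28 (SE 0.25) on 22.2 ± 2.84 against 18.1 ± 3.30 CPM (SD, n = 3 each). The ratio of POLE to POLD1 per length was 2.68, 2.09 and 2.09 against 3.88, 2.87 and 2.91, which did not overlap. The exact permutation test gave the same p of 0.10, or 0.35 after adjustment. As 0.10 is the smallest p possible with 3 against 3, that test could not reach 0.05. This pair too was chosen after the counts had been seen, and its non-overlap is no support for a change either. For polymerase alpha, the accessory subunit POLA2 and the catalytic POLA1 had -0.05 (SE 0.12) and -0.19 (SE 0.26). Per length the reads of POLA2 were 8.98 to 15.2 times those of POLA1 over the libraries. Of the exonic bases of POLA2 in GENCODE release 29, 53.7% are shared with a gene on the same strand. PRIM1 and PRIM2, the primase subunits, had 0.32 (SE 0.36) and 0.31 (SE 0.30). In both the lowest library was control replicate 1, with 6 reads each. PRIM2 had 0.02 without it and 0.76 without control replicate 3, and PRIM1 had 0.02 without SOX10 replicate 1 and 0.70 without control replicate 3.

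PCNA, the clamp that holds polymerases on DNA, was among the most precisely measured of the set. It stood at 549, 548 and 543 CPM with SOX10 and at 622, 524 and 560.3 CPM in controls, so that the SOX10 values lay within the control range. Its log2 fold change was -0.06 (SE 0.10), with a fold interval from 0.838 to 1.10. The 5 subunits of RFC, which opens the clamp and loads it, had values from -0.26 for RFC3 (SE 0.22) to 0.02 for RFC4 (SE 0.21), and none passed. The largest subunit, RFC1, stood at 99.3 CPM per kb and the others at 12.3 to 46.3 CPM per kb. For all 6 genes of this role the interval lay between -1 and 1.

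FEN1 and LIG1 trim and seal Okazaki fragments, and UNG removes uracil from DNA. Their log2 fold changes were 0.09 (SE 0.22), 0.49 (SE 0.29) and 0.51 (SE 0.36), none passed, and all 3 overlapped between groups. LIG1 stood at 23.6, 20.3 and 17.0 against 8.85, 13.8 and 18.04 CPM, and UNG at 11.8, 13.6 and 15.3 against 4.42, 12.7 and 10.7 CPM. Control replicate 1 was the lowest in both, on 8 and 4 reads. Without that library the values were 0.30 for LIG1 and 0.24 for UNG, and the highest were 0.84 for LIG1 (without control replicate 3) and 0.68 for UNG (without control replicate 2).

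Enzymes of nucleotide supply included some of the most abundant genes of the set, and all 4 had small positive values that did not pass. RRM1, the large subunit of ribonucleotide reductase, stood at 651, 797 and 739 CPM against 664, 652 and 714 CPM, with 0.10 (SE 0.10). RRM2, the small subunit made in S phase, stood at 687, 756 and 589.8 against 701, 539 and 695 CPM, with 0.07 (SE 0.11). Both overlapped between groups, and the ratio of RRM2 to RRM1 per length was 0.813 ± 0.112 against 0.828 ± 0.101 (SD, n = 3 each). TYMS, which makes thymidylate from deoxyuridylate, stood at 38.8, 46.3 and 48.9 against 37.6, 36.9 and 48.8 CPM, with 0.08 (SE 0.19). Of its exonic bases 64.6% are shared with genes on the opposite strand, so its level is uncertain. TK1, which salvages thymidine, stood at 39.4, 50.3 and 44.3 against 33.2, 35.8 and 39.0 CPM. Each SOX10 library lay above each control, by a margin that was small between SOX10 replicate 1 and control replicate 3. Its log2 fold change was 0.29 (SE 0.19), with an interval from -0.11 to 0.68 and an adjusted p of 0.913.

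Ordered by level per length over the 6 libraries, PCNA came first at 379 ± 23.0 CPM per kb (SD, n = 6), followed by RRM1 at 209 ± 17.4, MCM4 at 199 ± 14.1 and RRM2 at 171 ± 20.9. The ranges of RRM1 and MCM4 overlapped, as did those of MCM4 and RRM2, while PCNA at its lowest (356) was above every value of the others. E2F1 came last at 1.38 ± 0.89 CPM per kb. Median level was 21.5 CPM per kb in the 35 genes and lower, at 7.999, in 9747 tested genes with a length.

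Values were also set side by side for genes with and without E2F-type letters. The 17 tested genes with a match had a median log2 fold change of -0.05, with 8 positive, and the 13 without had 0.07, with 10 positive. These are descriptions of lists and were not tested.

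The other genes of replication, its licensing and checkpoint, and nucleotide supply were read from the same fit. All 49 of a further list (among them the origin recognition complex, the single-strand binding protein RPA, CDC45, and the accessory polymerase subunits) were tested, and 0 rose and 0 fell by edgeR, DESeq2 or limma-voom. Of the 49, 22 (44.9%) had a positive value, against 51.3% of all tested genes, and the median log2 fold change was -0.02. An unadjusted p under 0.05 by edgeR was found for 2 of the 49, against 6.23% of all tested genes. For 46 (93.9%) the interval lay between -1 and 1, against 76.2% of all tested genes. The smallest p-values for lower genes were those of RRM2B, the ribonucleotide reductase subunit induced by p53, and CHAF1B, a subunit of the histone chaperone CAF-1. RRM2B stood at 44.2 ± 5.04 against 59.6 ± 5.35 CPM and CHAF1B at 19.95 ± 1.45 against 28.9 ± 6.12 CPM (SD, n = 3 each). Their log2 fold changes were -0.43 (SE 0.17) and -0.55 (SE 0.23), with adjusted p-values of 0.688 and 0.708 by edgeR. Among genes with a positive value, UHRF1, which guides maintenance methylation of new DNA, had 0.33 (SE 0.20; adjusted p 0.882). The list took 0.299% to 0.320% of assigned reads in the SOX10 libraries and 0.305% to 0.310% in the controls.

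**Figure D5:**
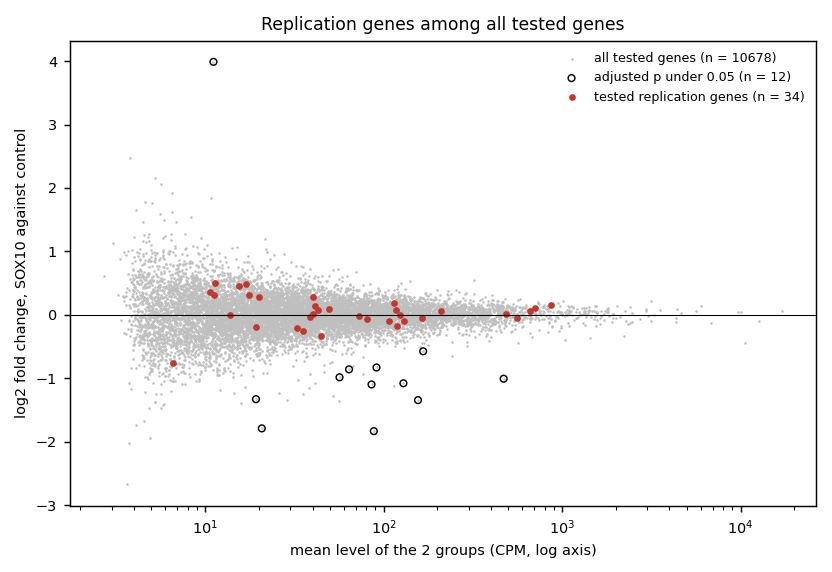
Log2 fold change (y axis) against mean level (x axis, CPM, log axis) for all 10678 tested genes (grey), the 12 called genes (open circles) and the 34 tested replication genes (red). The red points lie within the grey cloud at every level, and none is among the 12 called.

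Single libraries moved the set a little. The median deviation of the 34 genes from their own means was 0.05, 0.13 and -0.09 on the log2 scale with SOX10 and -0.08, -0.08 and 0.05 in controls. SOX10 replicate 2 was thus the highest and SOX10 replicate 3 the lowest, both in the same group. Reads outside genes per 100 assigned were 93.5 in SOX10 replicate 1 and 97.0 in control replicate 3, which had deviations of 0.05 each, and 121 to 135 in the other libraries. With that ratio as a covariate the median was 0.04 and 0 of the 34 were called, while calls over all genes went from 12 to 43. Leaving out 1 SOX10 library gave a median log2 fold change of the set of 0.01 (replicate 1), -0.01 (replicate 2) or 0.10 (replicate 3). Leaving out 1 control gave 0.05, -0.03 or 0.08 in the same order. The ranges that follow are from fits without 1 library, for single genes that kept their sign in all of those fits. Values ran from -0.35 to -0.0021 for MCM2, from 4.9e-05 to 0.38 for MCM5 and from 0.0065 to 0.17 for MCM7. They ran from -0.46 to -0.21 for GINS1, from -0.35 to -0.03 for POLA1, from 0.17 to 0.39 for POLD1 and from -0.41 to -0.08 for RFC3. For the nucleotide enzymes RRM1 and TYMS they ran from 0.04 to 0.18 and from 0.0015 to 0.26. Ranges for MCM3, MCM4 and MCM6 were 0.04 to 0.09, 0.13 to 0.19 and 0.13 to 0.23. Those for CCNE1, POLE and TK1 were -0.93 to -0.56, -0.20 to -0.14 and 0.20 to 0.37. CCNE2, GINS2, PRIM1, PRIM2, LIG1 and UNG also kept their sign, with values given above.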

How the data were processed

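Total RNA of 6 libraries was made into sequencing libraries from 125 ng with a NuGEN Encore Complete kit, per the labels' protocols. Per the submitters' processing notes, TopHat 1.4.0, HTSeq and DESeq were used, with hg19 as the build. Which annotation and strand setting went into counting is not stated. The authors deposited raw counts, whole numbers for each gene, and the 5 class rows of reads without a gene (no-feature rows held 39.4% to 46.9% of records) were left out.

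Columns were matched to samples by title and grouped by the treatment label. Groups were compared with edgeR 4.0.16 (R 4.3.3; glmQLFit and glmQLFTest), TMM, filterByExpr (minimum count 10, total 15) and no covariate, with Benjamini-Hochberg adjustment over all 10678 tested genes and a threshold of 0.05. Log2 fold changes have a prior count of 0.125, and Wald standard errors and 95% intervals use the fit's quasi-dispersion. The test was also run on counts simulated from its own fit, with an outcome that is not reported here. DESeq2 1.42.0 and limma-voom (limma 3.58.1) were alternatives. Lengths and shared bases are from GENCODE release 29 and promoters from RefSeq (GRCh38.p14), another build than hg19. All 35 members were accounted for by role, values per library were given for the helicase, S-phase control, nucleotide synthesis, PCNA, CDC6, CDT1 and non-overlapping genes, and of the further list the 2 genes with the smallest p in each direction were to be named, of which 1 is not reported here. The members and lists were chosen with earlier results of these data known. Within groups, all pairs of libraries differed by more than sampling noise (chi-square per degree of freedom 1.94 to 7.44).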

Additional observations from a re-analysis of the deposited data

How the results depend on the processing

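None of the tested replication genes, and none of the 49 further genes, was called under any of the 18 alternatives, and 26 to 32 of the 31 to 35 tested had an interval between -1 and 1. Calls over all genes were 12, and became 48 with no filter on low counts, 43 with reads outside genes as a covariate, 7 with the replicate number as a block, 7 without SOX10 replicate 1 and control replicate 3 together, and 6 to 18 without single libraries. Of 34 genes 20 kept their sign in every alternative that tested them, which was 17 of 18 for CCNE1, GINS2 and PRIM1. The labels name no pairing of the libraries by replicate number. Same-numbered libraries had correlations of deviations of -0.03, -0.03 and -0.14, none of them the highest for its number. With 3 libraries per group these values cannot decide whether the libraries were paired. The block left the genes' median at 0.02. Depth limits the scarce genes. Thinned to equal depth in a single random draw, 31 replication genes were tested, with a median of 0.06.

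Signs of near-zero values changed as follows, and the cause was not tested. GINS3 had -7.7e-05 with DESeq2 size factors, -0.047 with limma-voom, -0.020 with the block, -0.0026 with the covariate and -0.027 with a GC offset (chosen after seeing the data). RFC4 had -0.029, -0.022, -0.045 and -0.011 with voom, block, covariate and GC offset, and -0.18 without SOX10 replicate 1 and control replicate 3. Without that pair RFC1 had -0.028, MCM5 -0.062 and RFC5 0.11. RFC5 had 0.0016 with upper quartile scaling, 0.0039 without a filter and 0.026 after thinning, where CDC6 had 0.020, RFC2 0.037 and FEN1 -0.074. GINS4 had 0.018 with voom and 0.00070 with the covariate, and with the GC offset MCM10 had -0.027 and RFC1 -0.020. Without single libraries the values ran from -0.23 to 0.045 for CDC6, -0.16 to 0.022 for CDT1, -0.067 to 0.32 for FEN1, -0.13 to 0.13 for GINS3, -0.28 to 0.20 for GINS4, -0.040 to 0.057 for MCM10, -0.11 to 0.012 for PCNA, -0.15 to 0.058 for POLA2, -0.051 to 0.11 for RFC1, -0.15 to 0.018 for RFC2, -0.25 to 0.16 for RFC4, -0.16 to 0.14 for RFC5 and -0.043 to 0.16 for RRM2.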
